A study of Mus musculus with 12 samples.

Results

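The autophagy genes described here were 38 mouse genes chosen by symbol from the known steps of autophagy. Of these, 37 had a row in the deposited count table of 23621 gene symbols, and Atg2a had none. All 37 were among the 10604 genes that passed the filter on low counts. They were measured by RNA sequencing of polyadenylated RNA in 12 libraries of neutrophils from female Balb/c mice aged 8 weeks. Low-density neutrophils (LDN) and high-density neutrophils (HDN) came from the circulation of mice carrying liver metastases, and Naive neutrophils came from bone marrow, with 4 libraries in each group. By its title the study concerned immature low-density neutrophils in liver metastasis of breast cancer. The labels name neither the tumour cells nor the separation protocol, nor whether each library is a separate animal or a pool, so p-values reflect the spread among these libraries, which may be technical.

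Autophagy encloses parts of the cytoplasm in a closed membrane, the autophagosome, and delivers them to lysosomes for breakdown. A kinase complex around Ulk1 starts the process, a lipid kinase complex around Pik3c3 marks the forming membrane, scaffold and lipid transfer proteins supply it, and ubiquitin-like conjugation attaches Atg8 proteins (the LC3 and GABARAP families) that receptors bind to bring in cargo. In neutrophils the pathway is known to take part in maturation in the bone marrow, where it frees fatty acids, and in degranulation.

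LDN and HDN are both blood neutrophils of tumour-bearing mice, whereas a comparison with Naive also crosses from bone marrow to blood. The HDN and LDN column names carry a tag that the Naive names lack, so tissue, tumour and any difference between sets of libraries cannot be told apart in comparisons with Naive. In bulk RNA, fewer cells of a type and less RNA per cell cannot be told apart either. Total counts were 23181686 to 26456768 in LDN, 20049857 to 30044508 in HDN and 18113922 to 27741885 in Naive. A level of 3 reads was worth 0.0954 to 0.153 CPM (reads relative to the scaled library size), and that floor covers counting error only. HDN 7 stood apart with a scaling factor of 1.28, against 1.01 to 1.05 in the other HDN libraries. The summed level of 7 neutrophil markers was 159200 to 207200 CPM in LDN, 72940 to 124700 CPM in HDN and 135100 to 169600 CPM in Naive. Most of that was S100a8, at 74348, 35725 and 53258 CPM in LDN, HDN and Naive, and S100a9, at 80293, 44708 and 69779 CPM. Csf3r was highest in HDN, at 3962, 8660 and 3632 CPM, and so was Cxcr2, at 2374, 2952 and 1064 CPM. Of these 7 markers, 4 were higher and 1 lower in LDN than in HDN. Markers of other cells were far lower. The 12 monocyte and macrophage markers summed to 466 to 566 CPM in LDN, 363 to 686 CPM in HDN and 651 to 877 CPM in Naive, and the 9 platelet markers to 28.7 to 34.1, 9.69 to 11.8 and 114.5 to 125.6 CPM in LDN, HDN and Naive. Most of the platelet sum was Itgb3 in LDN and Naive (26.5 and 113 CPM) and Itga2b in HDN (6.84 CPM). T cell markers summed to 32.6 to 49.4 CPM in LDN, 3.70 to 20.7 CPM in HDN and 192 to 267 CPM in Naive. Most of that was Cd3d, at 34.7, 8.11 and 214 CPM in LDN, HDN and Naive. Cd3e was lowest in Naive, at 0.718, 0.535 and 0.0876 CPM. Of 5 tested T cell markers, 2 were higher and 2 lower in LDN than in Naive. Eosinophil and basophil markers summed to 14.2 to 24.1 CPM in LDN, 40.5 to 86.8 CPM in HDN and 17.9 to 75.1 CPM in Naive, and B cell markers to 1.82 to 7.56, 0.458 to 2.78 and 17.4 to 46.7 CPM in LDN, HDN and Naive. Nearly all of the eosinophil and basophil sum in LDN and HDN was Siglecf (17.6 and 63.1 CPM), while Epx was at 0 in HDN. Of 7 tested markers of that list, 1 was higher and 5 lower in HDN than in Naive. NK cell and erythroid markers summed to at most 2.86 CPM in any library, and the haemoglobin genes were at 0. The part of these markers in the results below was not tested.

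The sequences shown here are the 250 bases before the RefSeq start site of 3 members on the build GRCm38.p6, 5′ to 3′ in the direction of the gene. Wipi1 and Wipi2 are shown because these paralogs changed in opposite directions between LDN and HDN, and Atg3 because it is the member whose stretch holds the motif of lysosomal gene regulation. Wipi1 lies at chr11:109611390-109611639 on the minus strand, Wipi2 at chr5:142629334-142629583 on the plus strand and Atg3 at chr16:45158579-45158828 on the plus strand. Capitals mark the E-box CACGTG and its longer form TCACGTGA, of which the Wipi1 and Wipi2 stretches hold none.
Wipi1: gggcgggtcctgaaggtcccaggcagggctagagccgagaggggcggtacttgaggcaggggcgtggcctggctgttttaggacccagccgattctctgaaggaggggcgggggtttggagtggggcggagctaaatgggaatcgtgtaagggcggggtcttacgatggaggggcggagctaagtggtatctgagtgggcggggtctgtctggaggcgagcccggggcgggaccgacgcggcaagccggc
Wipi2: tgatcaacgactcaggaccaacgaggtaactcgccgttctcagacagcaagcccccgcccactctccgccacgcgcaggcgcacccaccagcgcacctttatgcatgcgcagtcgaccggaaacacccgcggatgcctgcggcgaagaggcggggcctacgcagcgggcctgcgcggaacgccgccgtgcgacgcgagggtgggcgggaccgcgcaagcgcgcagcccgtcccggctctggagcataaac
Atg3: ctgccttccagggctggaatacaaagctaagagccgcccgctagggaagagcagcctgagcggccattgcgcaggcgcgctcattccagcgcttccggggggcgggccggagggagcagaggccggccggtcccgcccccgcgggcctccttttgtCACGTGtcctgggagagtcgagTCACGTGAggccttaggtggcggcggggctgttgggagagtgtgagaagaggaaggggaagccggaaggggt
The upstream stretches of 31 of the 37 measured members were matched by symbol in the RefSeq table and searched on both strands. The E-box CACGTG, bound by TFEB and other helix-loop-helix factors, occurred in 3 of the 31 genes, namely Atg3, Atg5 and Atg7. That is 9.68%, against 10.3% of 8145 tested genes with a stretch. Its longer form TCACGTGA, the core of the element bound by TFEB, occurred in Atg3 alone (3.23%, against 1.93% of tested genes), where it contains one of the E-boxes. The FOXO letters TGTTTAC occurred in 0 of the 31, against 2.57% of tested genes. A match is a description of these letters and is no evidence of binding.

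Set side by side per length, Gabarap had the highest level of all 37 measured members, with 517 ± 28.8 CPM per kb of exon in LDN, 575 ± 126 in HDN and 439 ± 84.4 in Naive (SD, n = 4 each). Next in HDN came Atg3, the enzyme that hands Atg8 proteins to lipid, at 102.5, 139 and 116 CPM per kb in LDN, HDN and Naive. Sqstm1, a cargo receptor, had 115 CPM per kb in LDN, 104 in HDN and 82.5 in Naive. At the other end was Atg10, the enzyme that joins Atg12 to Atg5, at 0.535 CPM per kb in LDN, 0.481 in HDN and 0.573 in Naive. Levels below are in CPM and are compared between libraries for 1 gene at a time.

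**Figure D1:**
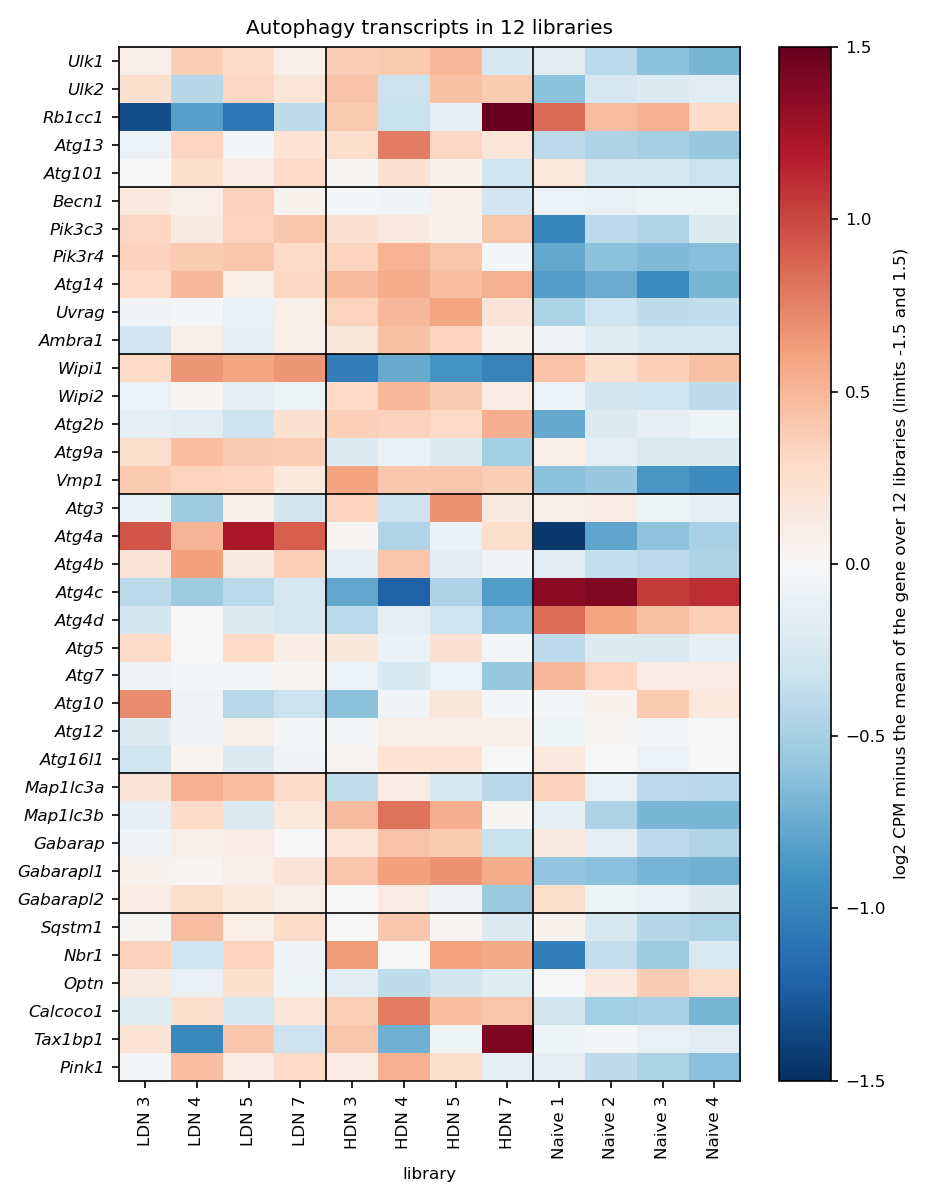
Level of each of the 37 measured autophagy genes in each of the 12 libraries, as log2 CPM minus the mean of the gene over all libraries, with genes ordered by step, libraries by group (LDN, HDN, Naive) and colours limited at 1.5 either way. Wipi1 is low in the 4 HDN libraries, Atg4c is high in the 4 Naive libraries and Rb1cc1 is low in the 4 LDN libraries.

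In the fit by group alone, which ignores the replicate numbers, most autophagy genes did not pass the test between LDN and HDN. That fit gives the values below unless another is named. LDN had more mRNA of 4 members, Wipi1, Atg9a, Atg4a and Map1lc3a, and less of 7, Rb1cc1, Uvrag, Ambra1, Wipi2, Atg2b, Gabarapl1 and Calcoco1, out of 37 tested (edgeR's quasi-likelihood test, adjusted p under 0.05 over all tested genes). The 11 calls were 29.7% of the members, whereas 46.3% of all 10604 genes were called in that comparison, 26.0% higher and 20.3% lower. The median log2 fold change was -0.07 over the members and 0.02 over all genes, and the median size of the change was 0.28 over the members and 0.51 over all genes. The libraries of LDN and HDN did not overlap for 12 members (32.4%), against 39.2% of all genes. HDN and LDN share replicate numbers, and a fit with the number as a block called 8 members higher and 11 lower, where it called 31.8% of all genes higher and 26.5% lower. Naive has none of these numbers, so that fit sets the blood groups against Naive at number 3 and not at their group mean. The block added Becn1, Atg4b, Atg4c and Optn as higher and Atg13, Atg3, Atg16l1 and Map1lc3b as lower. Leaving the 20 most abundant genes out of the library sizes, with no TMM scaling on top, gave 4 higher and 12 lower, beside 21.2% and 26.2% of all genes. At a log2 fold change of at least 1 in size, 1 member was higher and 1 lower, against 13.7% and 9.96% of all genes.

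More members were called against Naive, in comparisons that share the Naive libraries. HDN had 19 members higher and 5 lower than Naive, together 64.9% of the 37, against 59.8% of all genes (30.0% higher and 29.9% lower). LDN had 18 members higher and 3 lower than Naive, together 56.8%, against 54.2% of all genes (27.4% higher and 26.8% lower). The calls were divided evenly over all genes, while among the members higher calls were 51.4% of the list in HDN and 48.6% in LDN, and lower calls 13.5% in HDN and 8.11% in LDN. No overlap between libraries was found for 20 members (54.1%) in HDN against Naive, beside 53.3% of all genes, and for 19 (51.4%) in LDN against Naive, beside 55.3%. At a log2 fold change of at least 1 in size, HDN had 3 members higher and 2 lower than Naive (15.9% and 19.9% of all genes), and LDN had 4 higher and 2 lower (13.3% and 17.0%). The median log2 fold change over the members was 0.39 for HDN against Naive, beside 0.04 over all genes, and 0.36 for LDN against Naive, beside 0.01 over all genes. The median size of the change was 0.57 over the members in HDN, beside 0.68 over all genes, and 0.48 in LDN, beside 0.59. Library sizes without the 20 most abundant genes were used with no TMM scaling. They moved the median of all genes to -0.12 for LDN against HDN, -0.11 for HDN against Naive and -0.28 for LDN against Naive. With those sizes 14 members were higher and 6 lower in HDN than in Naive, beside 23.5% and 34.7% of all genes, and 7 were higher and 8 lower in LDN than in Naive, beside 17.4% and 37.4% of all genes. Ulk1, Pik3r4, Atg14, Vmp1, Atg4a, Atg4b and Gabarapl1 were the 7 higher in LDN under that scaling. In HDN it ended the higher calls of Ulk2 (adjusted p = 0.119), Atg2b (adjusted p = 0.0539), Atg4a (adjusted p = 0.0785), Atg4b (adjusted p = 0.224) and Atg5 (adjusted p = 0.332), and Atg9a was called lower (adjusted p = 0.00581).

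**Figure D2:**
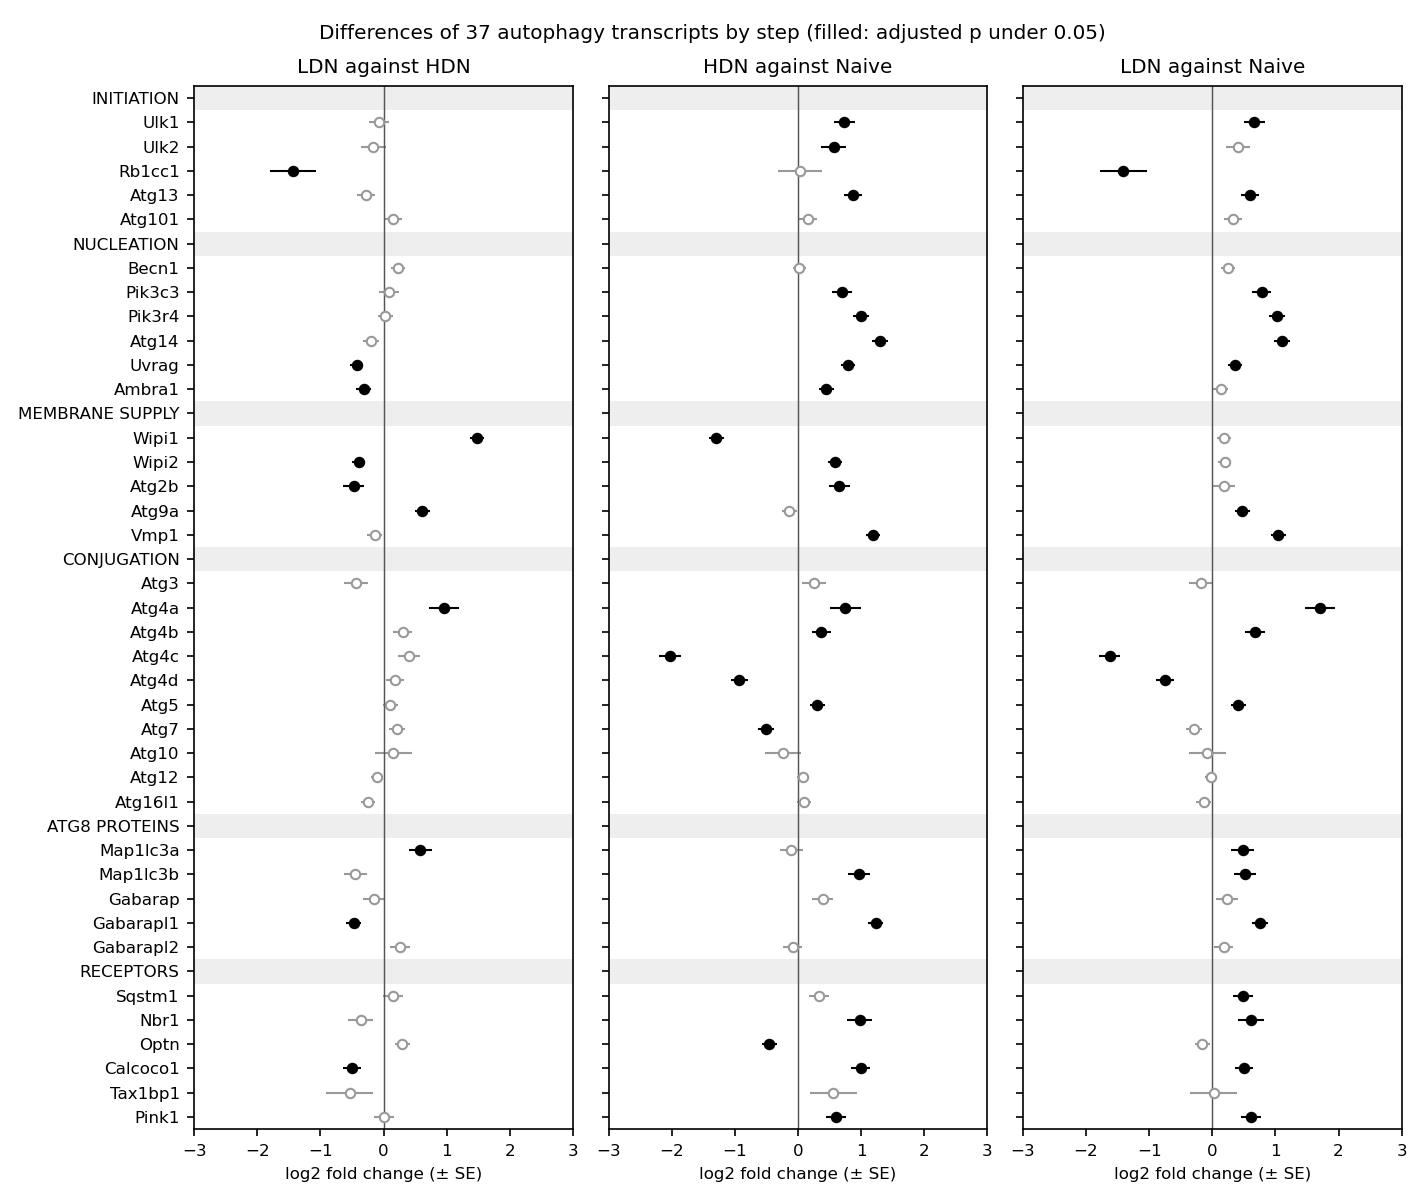
Log2 fold change of the 37 measured autophagy genes by step in each of the 3 comparisons, with bars of 1 SE from edgeR and filled points for an adjusted p under 0.05. The comparisons with Naive share its 4 libraries; against Naive most points lie above 0, with Atg4c the lowest at -2.03 in HDN and -1.63 in LDN, and between LDN and HDN the extremes are Wipi1 at 1.48 and Rb1cc1 at -1.44.

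Of the 5 genes of the initiating kinase complex, Ulk1 and Atg13 were higher in both blood groups than in Naive, whereas Rb1cc1 was lower in LDN than in either other group. Rb1cc1 encodes FIP200, the large scaffold of the Ulk1 complex. It had 4.93, 7.06, 5.87 and 9.54 CPM in LDN 3, 4, 5 and 7, against 16.3, 9.82, 11.3 and 36.8 CPM in HDN 3, 4, 5 and 7, and 22.4, 17.1, 17.9 and 15.2 CPM in Naive 1 to 4. Every LDN library lay below every HDN and Naive library, while HDN and Naive overlapped and HDN 7 stood above all others. LDN differed from HDN by -1.44 ± 0.37 (SE) on the log2 scale, or 2.71-fold lower (adjusted p = 0.00587), and from Naive by -1.41 ± 0.37, or 2.65-fold lower (adjusted p = 0.00516). HDN differed from Naive by 0.03 ± 0.35 (adjusted p = 0.947). Without HDN 7 the difference between LDN and HDN was -0.86 (adjusted p = 0.0115).

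Ulk1, the kinase itself, averaged 234 ± 23.0 CPM in LDN, 246 ± 50.7 in HDN and 147 ± 24.7 in Naive (SD, n = 4 each). It rose by 0.67 ± 0.16 on the log2 scale in LDN against Naive (adjusted p = 0.00361) and by 0.74 ± 0.16 in HDN against Naive (adjusted p = 0.00154). Atg13, the regulatory subunit that links Ulk1 to the scaffold, rose by 0.59 ± 0.14 in LDN (adjusted p = 0.003) and by 0.87 ± 0.14 in HDN (adjusted p = 0.000125) against Naive. Ulk2, the paralog of Ulk1, passed in HDN against Naive, at 0.57 ± 0.20 (adjusted p = 0.0224), beside 0.41 ± 0.20 in LDN against Naive (adjusted p = 0.0948), and LDN against HDN had an adjusted p of 0.525. The HDN call was lost without HDN 3, HDN 5 or Naive 1 (adjusted p of 0.0559 to 0.07). In the block fit, LDN at number 3 passed against Naive at 0.56 (adjusted p = 0.00481). Atg101, the stabilising partner of Atg13, passed in none of the comparisons, with 77.4 ± 7.39 CPM in LDN, 69.5 ± 10.3 in HDN and 61.9 ± 10.1 in Naive, but LDN passed against Naive without HDN 4, HDN 7 or Naive 1 (adjusted p of 0.0183 to 0.0489).

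The 6 nucleation genes, which encode the Pik3c3 lipid kinase and its partners, were mostly higher in blood neutrophils than in Naive. In HDN 5 were higher and 0 lower than in Naive, in LDN 4 were higher and 0 lower, and LDN had 0 higher and 2 lower than HDN. Over all genes 30.0% were higher in HDN and 27.4% in LDN than in Naive, and 20.3% were lower in LDN than in HDN. Library sizes without the 20 most abundant genes ended the LDN calls of Pik3c3 (adjusted p = 0.0565) and Uvrag (adjusted p = 0.627) against Naive. Atg14, the subunit that directs the kinase to autophagy, had 14.5, 16.5, 12.6 and 14.7 CPM in the LDN libraries, 16.4, 17.3, 16.1 and 17.1 CPM in HDN and 6.65, 7.01, 6.10 and 7.32 CPM in Naive. Both blood groups lay above all Naive libraries and overlapped each other. It rose by 1.10 ± 0.13 on the log2 scale in LDN against Naive, a 2.15-fold difference (adjusted p = 1.06e-05), and by 1.30 ± 0.13 in HDN against Naive, a 2.47-fold difference (adjusted p = 1.43e-06). LDN differed from HDN by -0.20 (adjusted p = 0.220).

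Pik3r4, the regulatory subunit Vps15, had 44.3, 45.8, 46.3 and 42.5 CPM in LDN, 44.2, 50.3, 46.5 and 34.5 CPM in HDN and 20.5, 22.9, 22.0 and 22.5 CPM in Naive. Again no blood library fell within the Naive range. The log2 fold change was 1.02 ± 0.12 in LDN against Naive (adjusted p = 1.14e-05), 1.00 ± 0.12 in HDN against Naive (adjusted p = 9.58e-06) and 0.03 in LDN against HDN (adjusted p = 0.872). The catalytic subunit Pik3c3 averaged 33.5 ± 2.58 CPM in LDN, 31.6 ± 3.45 in HDN and 19.5 ± 4.10 in Naive, and rose against Naive by 0.78 ± 0.16 in LDN (adjusted p = 0.00089) and 0.70 ± 0.16 in HDN (adjusted p = 0.00173). Its partner Becn1, with 207 ± 18.7 CPM in LDN, 177 ± 18.3 in HDN and 174 ± 1.66 in Naive, passed in none of them, but LDN against HDN passed in the block fit (log2 fold change 0.23, adjusted p = 0.0261), and LDN against Naive passed without HDN 7 (0.26, adjusted p = 0.0207).

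Uvrag, the subunit that takes the place of Atg14 in endosomal complexes, averaged 57.6 ± 3.34 CPM in LDN, 77.5 ± 9.30 in HDN and 44.9 ± 2.20 in Naive. It fell by 0.43 on the log2 scale in LDN against HDN (adjusted p = 0.00568) with no overlap between the libraries. It rose by 0.36 ± 0.11 in LDN (adjusted p = 0.0125) and by 0.79 ± 0.11 in HDN (adjusted p = 2.76e-05) against Naive. The LDN value was 0.27 without LDN 7 (adjusted p = 0.065) and 0.31 in the block fit at number 3 (adjusted p = 0.0635). Ambra1, a Becn1 partner, averaged 86.1 ± 10.2 CPM in LDN, 107 ± 12.1 in HDN and 78.4 ± 5.69 in Naive. Its difference of -0.32 ± 0.12 between LDN and HDN (adjusted p = 0.0429) rested on overlapping libraries and was lost when LDN 3, HDN 3, HDN 4, HDN 5 or any of Naive 2, 3 and 4 was left out (adjusted p of 0.0547 to 0.103). Ambra1 rose by 0.45 in HDN against Naive (adjusted p = 0.00494), and the block fit gave 0.30 at number 3 (adjusted p = 0.0663).

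Among the 5 measured genes that supply membrane, the paralogs Wipi1 and Wipi2, which bind the lipid made by Pik3c3, changed in opposite directions. Wipi1 had 80.6, 103.7, 99.1 and 103.8 CPM in LDN, 31.9, 39.0, 35.3 and 32.9 CPM in HDN and 88.1, 79.2, 84.1 and 89.0 CPM in Naive. All HDN libraries were far below those of the other groups, and LDN overlapped Naive. It rose by 1.48 ± 0.11 on the log2 scale in LDN against HDN, a 2.78-fold difference (adjusted p = 9.88e-07), and fell by 1.29 in HDN against Naive, a 2.45-fold difference (adjusted p = 3.92e-07). LDN differed from Naive by 0.19 (adjusted p = 0.179).

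Wipi2 averaged 74.1 ± 3.33 CPM in LDN, 97.5 ± 10.5 in HDN and 64.7 ± 5.59 in Naive, so that HDN was the highest group. It fell by 0.40 in LDN against HDN (adjusted p = 0.00899) and rose by 0.59 ± 0.11 in HDN against Naive (adjusted p = 0.000328), with no overlap in either. The 9 neutrophil precursor markers were likewise lowest in HDN, with a summed level of 27910 to 40900 CPM in LDN, 1128 to 3198 CPM in HDN and 58390 to 63140 CPM in Naive, and 9 of 9 were higher in LDN than in HDN. Their part in the Wipi1 difference, and in the differences of the other members and companion genes, was not tested.

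Vmp1, a lipid scramblase of the endoplasmic reticulum, had 78.3, 75.1, 74.4 and 66.7 CPM in LDN, 90.5, 78.6, 79.4 and 76.8 CPM in HDN and 39.0, 40.3, 32.5 and 30.7 CPM in Naive. The blood groups overlapped slightly and lay well above Naive. It rose by 1.05 ± 0.12 in LDN against Naive, a 2.06-fold difference (adjusted p = 6.13e-06), and by 1.19 ± 0.12 in HDN against Naive, a 2.28-fold difference (adjusted p = 1.16e-06). Atg9a, the scramblase of the small vesicles that seed the membrane, averaged 212 ± 11.2 CPM in LDN, 139 ± 16.0 in HDN and 152 ± 16.4 in Naive. Here LDN was the high group, by 0.61 ± 0.11 against HDN (adjusted p = 0.000754) and 0.48 ± 0.11 against Naive (adjusted p = 0.003). Atg2b, a lipid transfer protein, averaged 19.5 ± 3.25 CPM in LDN, 27.0 ± 2.09 in HDN and 17.2 ± 3.45 in Naive, and was lower in LDN than in HDN by -0.47 ± 0.17 (adjusted p = 0.0341), a call lost without LDN 3, LDN 5, HDN 3 or HDN 7 (adjusted p of 0.0526 to 0.0749).

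The 10 conjugation genes held both directions, and the changes were found mainly in the Atg4 proteases, which trim Atg8 proteins and release them from lipid. Atg4a had 8.02, 5.90, 9.75 and 7.73 CPM in LDN, 4.27, 3.05, 3.88 and 5.00 CPM in HDN and 1.53, 2.40, 2.75 and 2.98 CPM in Naive. No libraries overlapped between the groups, with LDN highest and Naive lowest. It differed by 0.96 ± 0.23 on the log2 scale in LDN against HDN (adjusted p = 0.00462), 0.75 ± 0.24 in HDN against Naive (adjusted p = 0.0157) and 1.71 ± 0.24, or 3.26-fold, in LDN against Naive (adjusted p = 4.90e-05). With library sizes that leave out the 20 most abundant genes, HDN against Naive did not pass (0.60, adjusted p = 0.0785).

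Atg4c ran the other way against Naive. It had 6.72, 6.14, 6.69 and 7.45 CPM in LDN, 5.19, 3.85, 6.47 and 4.96 CPM in HDN and 22.6, 23.2, 18.4 and 19.1 CPM in Naive. Every blood library was at less than any Naive library, and LDN and HDN overlapped. It fell by 1.63 on the log2 scale in LDN against Naive, a 3.09-fold difference (adjusted p = 3.22e-06), and by 2.03 in HDN against Naive, a 4.08-fold difference (adjusted p = 2.69e-07). LDN and HDN differed by 0.40 (adjusted p = 0.0683), and with the block by 0.42 (adjusted p = 0.0257). Atg4d fell in both blood groups, with 38.6 ± 3.46 CPM in LDN, 34.0 ± 4.58 in HDN and 64.8 ± 9.85 in Naive. Its log2 fold change against Naive was -0.75 ± 0.14 in LDN (adjusted p = 0.000425) and -0.93 ± 0.14 in HDN (adjusted p = 5.23e-05).

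Atg4b, the protease known to act most broadly on Atg8 proteins, was higher than Naive by 0.68 ± 0.15 in LDN (adjusted p = 0.00205) and by 0.37 ± 0.15 in HDN (adjusted p = 0.0490). The HDN value was 0.21 in the block fit at number 3 (adjusted p = 0.152), and leaving out LDN 7, HDN 4 or any of Naive 2, 3 and 4 gave 0.22 to 0.38 (adjusted p of 0.051 to 0.153). Differences were smaller among the conjugation enzymes. Atg7, the E1-like enzyme that activates Atg8 and Atg12, averaged 199 ± 5.91 CPM in LDN, 171 ± 25.2 in HDN and 243 ± 29.8 in Naive, and fell by 0.51 in HDN against Naive (adjusted p = 0.00328), beside -0.29 ± 0.13 in LDN (adjusted p = 0.0657). The LDN libraries lay below all Naive libraries for Atg7, and the difference passed with RLE scaling (adjusted p = 0.0332), DESeq2 (adjusted p = 0.0323), no filter (adjusted p = 0.0463), library sizes without the 20 most abundant genes (adjusted p = 5.44e-05) and a fit of the groups compared (adjusted p = 0.0223). It also passed without LDN 7 or HDN 7 (adjusted p of 0.0243 to 0.0417) and, at an adjusted p of 0.0328, in the authors' deposited table. Atg5, part of the complex that helps attach Atg8 to lipid, rose by 0.41 ± 0.12 in LDN (adjusted p = 0.0102) and by 0.31 ± 0.12 in HDN (adjusted p = 0.0395) against Naive. These Atg5 calls were lost in LDN without LDN 3, LDN 5 or Naive 1 (adjusted p of 0.0542 to 0.0593), and in HDN without HDN 3, HDN 5 or any of Naive 1, 2 and 3 (adjusted p of 0.0777 to 0.11). Atg3, Atg10, Atg12 and Atg16l1 passed in none of the 3 comparisons, with log2 fold changes of -0.44 to 0.25. In the block fit Atg3 was lower in LDN than in HDN by -0.41 (adjusted p = 0.00355) and higher in HDN at number 3 than in Naive by 0.32 (adjusted p = 0.0442). In that fit Atg16l1 was lower than in HDN by -0.24 in LDN (adjusted p = 0.0436). Both also passed in LDN against HDN with RLE scaling, with DESeq2 and with library sizes without the 20 most abundant genes (adjusted p of 0.0102 to 0.0479).

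**Figure D3:**
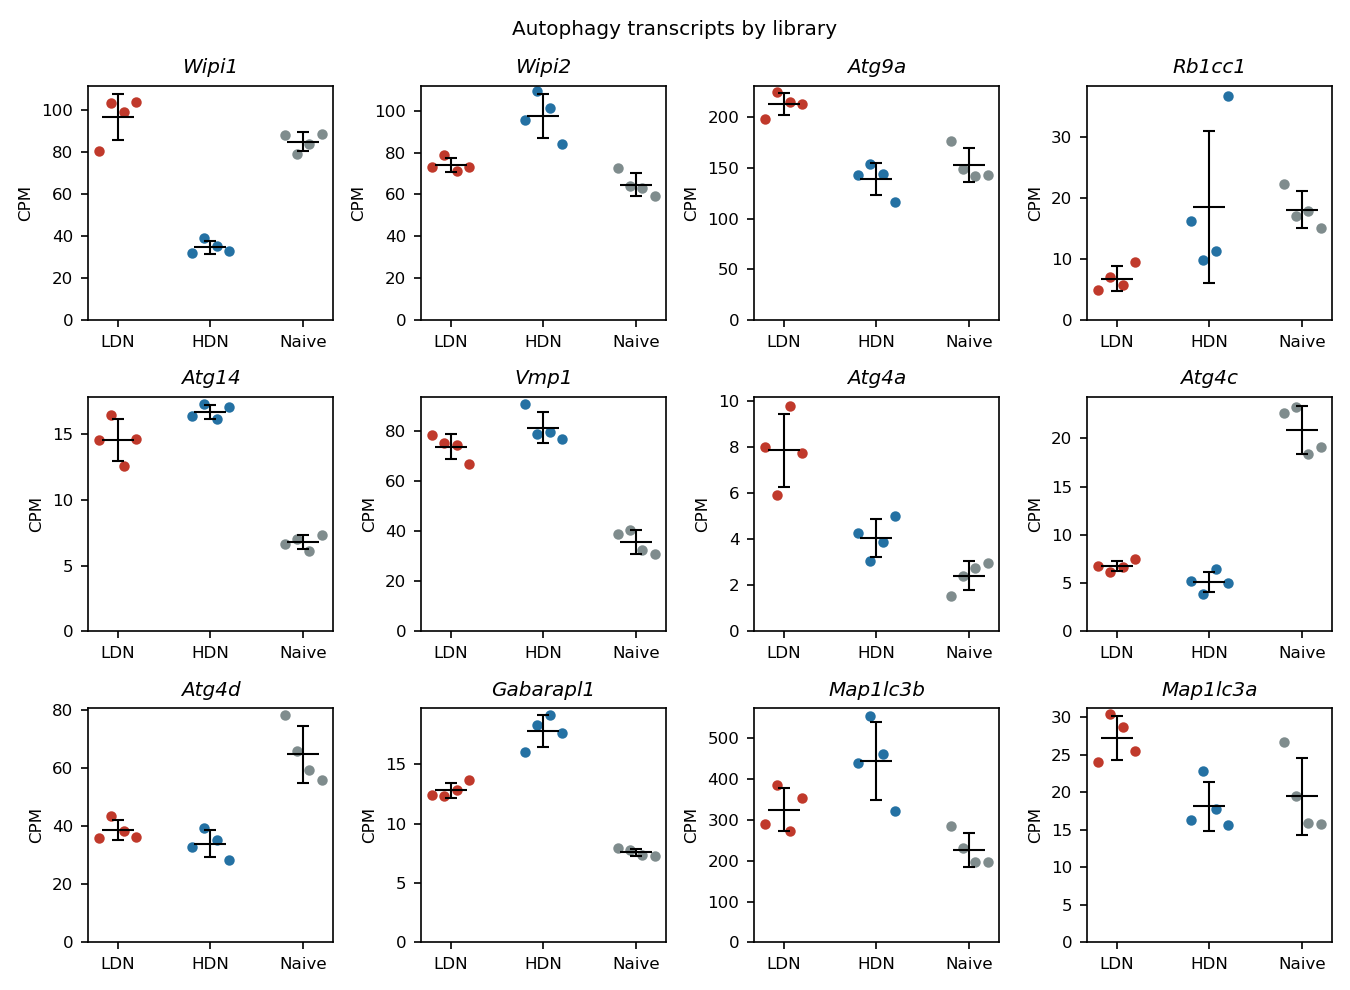
CPM per library, on linear axes from 0, of 12 autophagy genes that differed between groups, with 4 points, the mean and 1 SD for LDN, HDN and Naive from left to right. Wipi1 and Atg4a are higher in all 4 LDN libraries than in any HDN library, and Atg4c is higher in all 4 Naive libraries than in any blood library.

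Within the 5 Atg8 proteins, Gabarapl1 and Map1lc3b were highest in HDN and Map1lc3a was highest in LDN. Gabarapl1 had 12.4, 12.4, 12.8 and 13.7 CPM in LDN, 16.0, 18.3, 19.1 and 17.6 CPM in HDN and 7.95, 7.75, 7.37 and 7.27 CPM in Naive. All groups were separate, in the order HDN, LDN and Naive. The log2 fold change was -0.47 ± 0.12 in LDN against HDN (adjusted p = 0.00575), 1.23 ± 0.12, or 2.34-fold, in HDN against Naive (adjusted p = 1.23e-06) and 0.76 ± 0.12 in LDN against Naive (adjusted p = 0.000149).

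Map1lc3b, which encodes the LC3B protein widely used as an autophagosome marker, had 290.0, 387, 273 and 353 CPM in LDN, 440, 556, 462 and 321 CPM in HDN and 285, 230, 197 and 197 CPM in Naive. HDN 7 lay inside the LDN range, and LDN 5 lay below Naive 1. The log2 fold change was 0.97 ± 0.18, or 1.96-fold, in HDN against Naive (adjusted p = 0.000388) and 0.52 ± 0.18 in LDN against Naive (adjusted p = 0.0257). It was -0.45 ± 0.18 in LDN against HDN (adjusted p = 0.0543), and this passed with the block (adjusted p = 0.0325) and without HDN 7 (adjusted p = 0.0105). The same difference passed with RLE scaling, DESeq2 and no filter (adjusted p of 0.0299 to 0.034). It also passed with library sizes without the 20 most abundant genes (adjusted p = 0.00631) and a fit of the groups compared (adjusted p = 0.0452). Without LDN 4, LDN 7 or Naive 1 it passed too (adjusted p of 0.0204 to 0.0377). It did not pass with limma-voom or in the remaining fits that left out a library. In the authors' deposited table its adjusted p was 0.02998. The difference between LDN and Naive did not pass in the block fit at number 3 (0.43, adjusted p = 0.0952) or without LDN 4, LDN 7 or any of Naive 2, 3 and 4 (adjusted p of 0.0654 to 0.103). Map1lc3a, the LC3A gene, had 24.0, 30.4, 28.7 and 25.5 CPM in LDN, 16.3, 22.9, 17.7 and 15.7 CPM in HDN and 26.7, 19.5, 15.9 and 15.8 CPM in Naive. LDN was above every HDN library and overlapped Naive 1. It rose by 0.58 ± 0.19 in LDN against HDN (adjusted p = 0.0206) and by 0.48 in LDN against Naive (adjusted p = 0.0427). The difference from HDN did not pass without LDN 4, LDN 5, HDN 3 or HDN 7 (adjusted p of 0.05002 to 0.0703). The difference from Naive did not pass in the block fit at number 3 (0.32, adjusted p = 0.228) or without any 1 library of LDN or of Naive 2, 3 and 4 (adjusted p of 0.0613 to 0.134).

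Gabarap and Gabarapl2 passed in none of the 3 comparisons. Gabarap had 652, 726, 735 and 681 CPM in LDN, 771, 909, 892 and 538 CPM in HDN and 745, 616, 517 and 495 CPM in Naive. Gabarapl2, whose product is also known as GATE-16, had 37.8, 41.9, 38.9 and 37.6 CPM in LDN, 34.8, 38.1, 33.8 and 23.7 CPM in HDN and 42.0, 33.1, 32.4 and 30.5 CPM in Naive. For both genes all groups overlapped, and HDN 7 was the lowest HDN library. Gabarap passed in HDN against Naive without HDN 7 or Naive 1 (log2 fold changes of 0.54 and 0.52, adjusted p of 0.00386 and 0.0136).

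Ratios of paralogs within a library do not depend on how libraries are scaled. For each pair the log2 ratio of reads was compared by an exact two-sided permutation test over the 70 arrangements of 4 against 4 libraries, which can give no p below 0.0286, with adjustment over 12 tests. There were 1.30 reads of Wipi1 for each read of Wipi2 in LDN, 0.357 in HDN and 1.32 in Naive (log2 ratios of 0.38 ± 0.16, -1.48 ± 0.09 and 0.40 ± 0.14, SD). The ratio was thus 3.64-fold higher in LDN than in HDN and 3.69-fold lower in HDN than in Naive (exact p = 0.0286, adjusted 0.049 in each), while LDN and Naive differed by -0.02 on the log2 scale (exact p = 0.914).

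Map1lc3b gave 11.9 reads for each read of Map1lc3a in LDN, 24.3 in HDN and 11.8 in Naive. LDN was 2.04-fold lower than HDN and HDN 2.06-fold higher than Naive (exact p = 0.0286, adjusted 0.049 in each), and LDN and Naive did not differ beyond their spread (exact p = 0.914). Gabarapl1 gave 0.328 reads for each read of Gabarapl2 in LDN, 0.553 in HDN and 0.221 in Naive, and all 3 comparisons reached the smallest exact p of 0.0286 (adjusted 0.049). The ratio of Ulk1 to Ulk2 was 4.84 in LDN, 4.49 in HDN and 3.96 in Naive, with exact p of 0.886 for LDN against HDN, 0.600 for HDN against Naive and 0.429 for LDN against Naive. Paired by number, the ratios of the other pairs differed between LDN and HDN in the same direction in 4 of 4 pairs, for which exact sign flips can give no p below 0.125.

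**Figure D4:**
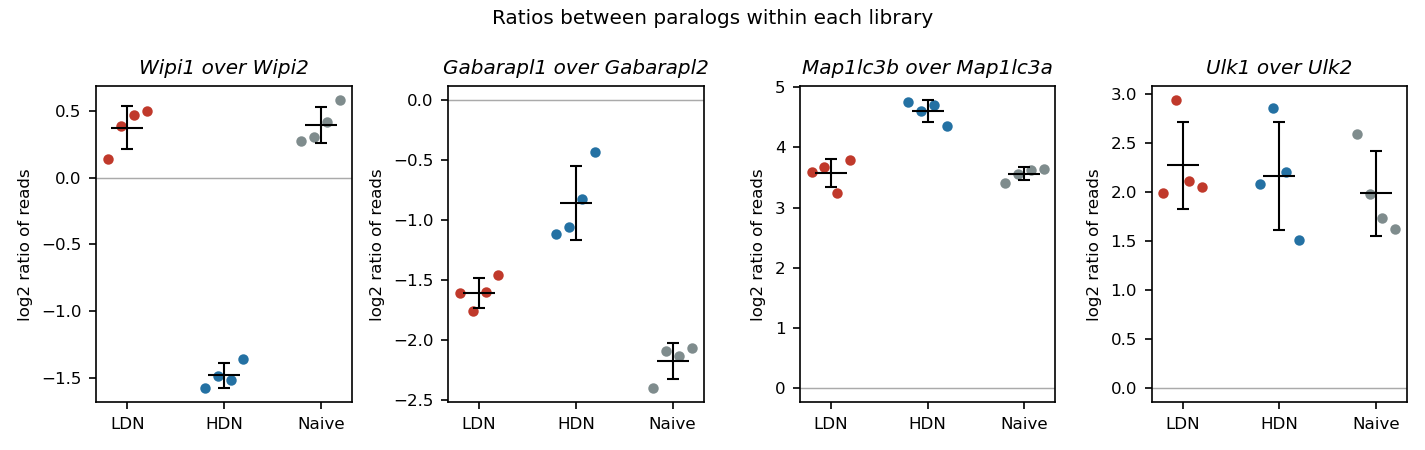
Log2 ratio of the reads of 2 paralogs in each library, with 4 points, the mean and 1 SD for LDN, HDN and Naive from left to right. HDN stands apart for Wipi1 over Wipi2 (mean -1.48, against 0.38 in LDN and 0.40 in Naive) and for Map1lc3b over Map1lc3a (mean 4.61, against 3.58 in LDN and 3.56 in Naive).

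The 6 receptors include proteins that tie ubiquitin-marked cargo to Atg8 and the mitochondrial kinase Pink1, which marks damaged mitochondria for them. Of these, 4 were higher and 0 lower in LDN than in Naive, 3 were higher and 1 lower in HDN than in Naive, and LDN against HDN gave 1 call. Over all genes 27.4% were higher and 26.8% lower in LDN than in Naive, 30.0% and 29.9% in HDN, and 46.3% were called between LDN and HDN. With library sizes without the 20 most abundant genes, the 4 receptors called in LDN did not pass against Naive (adjusted p of 0.0518 to 0.264). Optn was then lower in LDN than in Naive (adjusted p = 0.0167). Calcoco1, a receptor of the endoplasmic reticulum and Golgi, had 49.6, 66.1, 47.1 and 63.4 CPM in LDN, 71.7, 95.4, 76.4 and 75.1 CPM in HDN and 46.2, 39.0, 40.2 and 34.7 CPM in Naive. HDN was above every library of the other groups. It was lower in LDN than in HDN by -0.49 ± 0.14 (adjusted p = 0.0129) and higher than Naive by 0.99 ± 0.15 in HDN (adjusted p = 4.81e-05) and by 0.50 in LDN (adjusted p = 0.0102). The LDN call against Naive was lost without LDN 4 or LDN 7 (adjusted p of 0.0513 and 0.0523), and the block fit gave 0.32 at number 3 (adjusted p = 0.0698).

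Nbr1, a ubiquitin-binding receptor, had 107.5, 68.8, 106.8 and 81.7 CPM in LDN, 131, 84.5, 129 and 125 CPM in HDN and 41.3, 66.1, 58.7 and 72.5 CPM in Naive. The libraries numbered 4 were the lowest of both blood groups, and LDN 4 lay within the Naive range. The log2 fold change was 0.61 in LDN against Naive (adjusted p = 0.0195), 0.98 ± 0.20 in HDN against Naive (adjusted p = 0.000889) and -0.36 in LDN against HDN (adjusted p = 0.153). LDN did not pass against Naive without LDN 3, LDN 5 or Naive 1 (adjusted p of 0.0891 to 0.0949), and passed against HDN without HDN 4 (adjusted p = 0.0484). Sqstm1, which encodes the receptor p62, had 283, 382, 298 and 340 CPM in LDN, 278, 369, 283 and 241 CPM in HDN and 290, 235, 207 and 200 CPM in Naive. The groups overlapped in every comparison. It rose by 0.48 in LDN against Naive (adjusted p = 0.0195), and the values were 0.33 in HDN against Naive (adjusted p = 0.0875) and 0.15 in LDN against HDN (adjusted p = 0.450). The Sqstm1 call in LDN was lost without LDN 4, LDN 7 or any of Naive 2, 3 and 4 (adjusted p of 0.0563 to 0.0857). The block fit gave 0.35 for LDN at number 3 against Naive (adjusted p = 0.104). HDN passed against Naive without HDN 7 or Naive 1 (adjusted p of 0.0326 and 0.0176).

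Pink1 had 94.9, 133, 105 and 119 CPM in LDN, 106, 140, 115 and 88.1 CPM in HDN and 89.0, 74.5, 69.8 and 62.8 CPM in Naive. LDN lay above Naive, HDN 7 just below Naive 1, and LDN and HDN overlapped. It rose by 0.61 in LDN (adjusted p = 0.00527) and by 0.60 in HDN (adjusted p = 0.00512) against Naive, with 0.01 between LDN and HDN (adjusted p = 0.962). Optn, a receptor for mitochondria and bacteria, had 44.4, 37.3, 47.6 and 38.4 CPM in LDN, 36.1, 31.1, 33.5 and 35.8 CPM in HDN and 40.1, 44.8, 52.6 and 49.3 CPM in Naive. HDN was the lowest group, without overlap. It fell by 0.45 in HDN against Naive (adjusted p = 0.00592). The difference of 0.30 between LDN and HDN had an adjusted p of 0.0617, and of 0.0352 with the block.

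Tax1bp1, a receptor related to Calcoco1, varied widely within the blood groups. It had 59.0, 26.1, 68.4 and 41.2 CPM in LDN, 68.3, 30.9, 48.8 and 134.6 CPM in HDN and 49.0, 50.3, 47.2 and 45.4 CPM in Naive. The blood libraries lay on both sides of the narrow Naive range. No comparison passed, with -0.54 ± 0.37 for LDN against HDN (adjusted p = 0.254), 0.56 for HDN against Naive (adjusted p = 0.212) and 0.02 for LDN against Naive. Without HDN 7 the difference between LDN and HDN was -0.02 (adjusted p = 0.968), and without HDN 4 the difference between HDN and Naive was 0.81 (adjusted p = 0.0469).

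Companion genes were counted by list. Of 15 tested other core factors, 3 were higher and 0 lower in LDN than in HDN, against 26.0% and 20.3% of all genes. Trp53inp2, which shuttles from the nucleus and binds Atg8 proteins, averaged 209 ± 35.7 CPM in LDN, 30.7 ± 7.64 in HDN and 511 ± 39.9 in Naive. The log2 fold change was 2.76 ± 0.19 in LDN against HDN (adjusted p = 4.16e-07), -4.06 ± 0.20 in HDN against Naive (adjusted p = 1.99e-09) and -1.29 ± 0.18 in LDN against Naive (adjusted p = 3.65e-05). Tecpr1, which acts where autophagosomes meet lysosomes, was higher in LDN than in HDN by 0.52 ± 0.19 (adjusted p = 0.0364), and Dram1, a lysosomal membrane protein, by 0.30 ± 0.12 (adjusted p = 0.0477). Atg16l2, the paralog of Atg16l1, is named after its values were seen. It averaged 9.08 ± 1.49 CPM in LDN, 12.2 ± 2.19 in HDN and 52.9 ± 6.77 in Naive, a log2 difference from Naive of -2.54 ± 0.17 in LDN (adjusted p = 7.51e-08) and -2.12 ± 0.17 in HDN (adjusted p = 1.64e-07).

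Of 37 tested genes of nutrient control through mTORC1, AMPK and TFEB, 7 were higher and 8 lower in LDN than in HDN (18.9% and 21.6%). Over all genes 26.0% were higher and 20.3% lower. Mlst8, a subunit of the mTOR complexes, averaged 24.5 ± 5.74 CPM in LDN, 3.60 ± 1.34 in HDN and 102 ± 8.33 in Naive (2.76 ± 0.23 in LDN against HDN, adjusted p = 1.79e-06). The folliculin gene Flcn, whose product acts on TFEB through Rag GTPases, averaged 27.7 ± 3.87 CPM in LDN, 77.4 ± 18.6 in HDN and 51.0 ± 7.28 in Naive, and fell by 1.48 in LDN against HDN (adjusted p = 3.37e-05). Its partner Fnip1 fell by 1.87 (adjusted p = 0.00302), with 5.87 ± 1.67 CPM in LDN and 21.4 ± 17.3 in HDN, and the AMPK subunit gene Prkab2 fell by 1.86 (adjusted p = 0.000451), with 1.85 ± 0.763 CPM in LDN and 6.76 ± 2.26 in HDN. Of 16 genes of autophagosome fusion, 4 were higher and 2 lower in LDN than in HDN (25.0% and 12.5%, against 26.0% and 20.3% of all genes). They included the SNARE genes Ykt6 (0.58 ± 0.13, adjusted p = 0.00308) and Stx17 (-0.50 ± 0.15, adjusted p = 0.0160). They also included Plekhm1, a tether (0.46 ± 0.15, adjusted p = 0.0203), and Vps18, a tethering complex subunit (0.44 ± 0.14, adjusted p = 0.0185).

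Of 13 tested genes of mitophagy and ER-phagy, 3 were higher and 3 lower in LDN than in HDN (23.1% each, against 26.0% and 20.3% of all genes). Bnip3, a mitophagy receptor and target of hypoxia signalling, averaged 23.6 ± 6.49 CPM in LDN, 72.2 ± 2.19 in HDN and 20.1 ± 1.04 in Naive. It fell by 1.61 in LDN against HDN (adjusted p = 5.83e-06) and rose by 1.85 ± 0.16 in HDN against Naive (adjusted p = 3.89e-07), with no overlap. Fam134b, an ER-phagy receptor gene, averaged 147 ± 27.4 CPM in LDN, 248 ± 41.7 in HDN and 98.1 ± 11.4 in Naive, and was lower in LDN than in HDN by -0.75 ± 0.16 (adjusted p = 0.00209). Tbk1, the kinase that activates Optn and other receptors, was lower in LDN than in HDN by -0.69 ± 0.24 (adjusted p = 0.0323), and Ncoa4, the ferritin receptor, was higher by 0.69 ± 0.26 (adjusted p = 0.0396).

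In the authors' deposited tables of DESeq2 comparisons, 4 members were higher and 10 lower in LDN than in HDN, with the same call as edgeR for 34 of 37, and 21.9% of all genes in that table were higher and 20.8% lower. The authors' deposited table of HDN against Naive gave 19 higher and 5 lower, with the same call for 37 of 37, beside 26.2% and 27.5% of all its genes. The authors' deposited table of LDN against Naive gave 17 higher and 4 lower, with the same call for 35, beside 21.2% and 24.6% of all its genes.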

How the data were processed

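RNA sequencing counts of 12 neutrophil libraries in 3 groups were used. Per the labels' protocols, stranded libraries were made from polyadenylated RNA. Per the submitters' processing notes, CASAVA 1.8.2, Trimmomatic, STAR and DESeq2 1.16.1 were used. Build, annotation and strand setting are not given in the sources used, so overlapping and antisense genes cannot be told apart. The authors deposited raw counts per gene symbol, not normalized, and 0 columns of sample values were unmatched. Per the file headers, the authors' comparison tables hold a mean normalized signal, a log2 fold change with its log2 error, a score (the test statistic) and p-values, raw and adjusted.

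Genes with enough counts by edgeR's filter were scaled by TMM and fitted with edgeR 4.0.16 (robust quasi-likelihood, group only, all 12 libraries, limma 3.58.1, R 4.3.3), at an adjusted p under 0.05 (Benjamini-Hochberg over 10604 genes). Log2 CPM used a prior count of 2. Paralog ratios were taken from the counts with nothing added, and adding 5 to each count was an alternative. The fit was run on simulated counts with the same spread for every gene and far fewer changed genes than were called here. That run does not show how the fit performs on these data. DESeq2 1.42.0, limma-voom, other scalings, no filter, a replicate block, single comparisons and leaving out each library were alternatives. The library sizes without the 20 most abundant genes were used with no TMM factors. Exon lengths per kb came from GENCODE M21, which may differ from the authors' annotation, and start sites from RefSeq.

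Members given library by library had an adjusted p under 0.05 with a log2 change of at least 1 in some comparison and a mean log2 CPM of at least 1, or were Atg8 proteins or receptors. Companions named were up to 4 per list, called between LDN and HDN with the largest change. The members and lists were chosen with earlier results of these data known.

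The labels give HDN and LDN the numbers 3, 4, 5 and 7 with no meaning stated. Library deviations from group means correlated at 0.315 to 0.76 over all genes between same-numbered libraries, each above 0.1, and at -0.608 to 0.412 between others, so the numbers were taken to pair them. No library was another counted again, with a chi-square per gene of 3.42 to 196 between replicates. The 3.42 was between Naive 3 and Naive 4, and the next lowest value was 15.8, between Naive 2 and Naive 3. Whether Naive 3 and Naive 4 come from separate animals is not given in the labels.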

Additional observations from a re-analysis of the deposited data

Results flagged for a closer look

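A search for a single library far from the other 3 of its group was made in 111 sets of 4 CPM values, of which chance alone would mark about 5.55, and it marked 5. In HDN 4, Ulk2 had 36.5 CPM against 59.8 to 61.8 in the other HDN libraries, Nbr1 had 84.5 CPM against 125 to 131, and Atg4b had 65.3 CPM against 43.3 to 47.0. In HDN 3, Atg12 had 53.4 CPM against 57.2 to 57.9. In Naive 1, Atg101 had 77.0 CPM against 54.9 to 58.1.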

How the results depend on the processing

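Small fold changes depended on scaling and on the spread assumed. Library sizes without the 20 most abundant genes gave 12 members lower in LDN than in HDN, where 7 were reported, and 7 higher and 8 lower in LDN than in Naive, where 18 and 3 were reported. That setting also left out the TMM factors, and the part of each change was not tested. Over all genes that scaling gave 1850 higher and 3971 lower in LDN than in Naive, where 2910 and 2840 were reported. The replicate block gave 8 members higher and 11 lower in LDN than in HDN, where 4 and 7 were reported, and over all genes 3377 higher and 2810 lower, where 2761 and 2153 were reported. The other counts stayed within 1.5 times under these settings, RLE scaling, no filter, DESeq2, limma-voom and fits of the groups compared. Leaving out each library in turn gave 3 to 5 higher and 5 to 10 lower in LDN than in HDN, 17 to 21 and 5 in HDN than in Naive, and 13 to 20 and 3 to 4 in LDN than in Naive. Over all genes those fits called 21.5% to 27.5% higher and 18.2% to 23.2% lower in LDN than in HDN. The shares were 26.5% to 30.6% and 27.5% to 31.2% in HDN against Naive, and 22.9% to 29.3% and 23.9% to 29.1% in LDN against Naive. Without both libraries numbered 4, a choice made after seeing the data, the counts were 5 and 6, 20 and 5, and 17 and 3. The shares of all genes were then 25.7% and 19.1%, 31.2% and 31.8%, and 28.9% and 27.9%. Leaving out each library, the log2 ratio of Wipi1 to Wipi2 differed by 1.82 to 1.94 between LDN and HDN and by -1.92 to -1.82 between HDN and Naive, and that of Map1lc3b to Map1lc3a by -1.11 to -0.92 and by 0.99 to 1.12. No called member changed direction under any of these settings. The cause of these movements was not tested.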

Other observations

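The libraries numbered 4 of both blood groups deviated from their group means in a like way. Over the 37 members the deviations of LDN 4 and HDN 4 had the same sign in 30 and a correlation of 0.862 across genes, which are not independent replicates, against 0.0713 to 0.264 for the other 3 numbers. On the log2 scale Tax1bp1 deviated by -0.80 in LDN 4 and -0.98 in HDN 4, Ulk2 by -0.50 and -0.56, Atg3 by -0.32 and -0.52, and Nbr1 by -0.38 and -0.45. On the high side were Atg4b at 0.29 in LDN 4 and 0.40 in HDN 4, Map1lc3b at 0.26 and 0.35, Atg13 at 0.22 and 0.39, and Sqstm1 at 0.24 and 0.35.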
